A study of Homo sapiens with 16 samples.

Results

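The cytosolic ribosomal protein genes were read across 16 RNA-seq libraries of Jurkat and HSB-2, human cell lines from T-cell acute lymphoblastic leukemia (T-ALL), in which USP7, a deubiquitylating enzyme, was knocked down. Members were the rows whose symbol was RPL or RPS with a number and at most 1 suffix letter A or X, together with RPLP0, RPLP1, RPLP2 and RPSA, without pseudogenes or genes of chromosome Y. This gave 77 of 57820 genes in the table, 46 of the large subunit and 31 of the small subunit, and all 77 passed the filter on low counts. FAU, which encodes a ribosomal protein fused to a ubiquitin-like protein, and RACK1 are ribosomal too but fell outside the rule, and their values are given separately.

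Both lines were labelled TAL1+, and each gave 4 groups of 2 libraries. The groups were wild-type cells, cells with the scrambled control, cells with USP7 shRNA-4057 and cells with USP7 shRNA-4058. Hairpins were delivered by lentivirus, and cells were sorted for GFP or selected with puromycin, so that wild-type cells differ from the other groups in transduction and selection as well as in the hairpin. The source labels call the control a scrambled siRNA and the design calls it a scrambled shRNA. No label says that the 2 libraries of a group came from separate cultures, so p-values measure the spread between these libraries, which may be technical.

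Ribosomal proteins assemble with ribosomal RNA into the small subunit, which decodes the mRNA, and the large subunit, which joins amino acids. Their genes are spread over the genome and are transcribed at high levels in growing cells, and their mRNAs start with an oligopyrimidine tract (TOP) through which mTOR signalling and LARP1 control their translation and stability. Several members have a second role: RPL5 and RPL11 bind MDM2 when ribosome assembly is disturbed, and RPL22 is needed for normal T-cell development.

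The start of the transcript is the sequence feature that members share. RefSeq windows on GRCh38.p14, 250 bases before and 50 after each listed start, were held for 62 of the 77 members. Of these, 46 (74.2%) had a listed start at C followed by at least 4 bases that were each C or T, read in the direction of the mRNA, against 5.14% of the 27305 genes in the table. The letters CGGAAG or their reverse complement CTTCCG, the core that ETS factors bind, occurred in the 300-base window of 40 of the 62 members (64.5%) and of 22.6% of all genes, with CTTCCG able to overlap the tract. The windows below hold 15 bases each side of the start, with the run of C and T from the first transcribed base in capitals. They show 7 members that are described below for a large or divergent change and RPLP0 as a member near the median, chosen after their values were seen, and the RPS19 window is the one of its 2 listed starts that has a tract.
RPS3A: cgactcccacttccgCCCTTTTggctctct, plus strand of chr4:151099613-151099642.
RPS6: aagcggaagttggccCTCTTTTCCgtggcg, minus strand of chr9:19380222-19380251.
RPS18: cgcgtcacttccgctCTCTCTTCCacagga, plus strand of chr6:33272060-33272089.
RPS3: gcccgcgagccacttCCTTTCCTTTCagcg, plus strand of chr11:75399503-75399532.
RPS19: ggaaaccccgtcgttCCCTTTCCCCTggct, plus strand of chr19:41860240-41860269.
RPLP0: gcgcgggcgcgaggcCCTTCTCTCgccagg, minus strand of chr12:120201097-120201126.
RPL22: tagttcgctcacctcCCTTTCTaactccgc, minus strand of chr1:6199581-6199610.
RPL36A: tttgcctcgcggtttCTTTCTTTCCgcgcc, plus strand of chrX:101390996-101391025.
RPL17 and RPL36A were both outlying from the common shift described next, and RPL36A had the tract while no listed start of RPL17 had it.

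USP7 itself checked the labels. It stood at 384 and 387 CPM (counts scaled to library size with TMM factors) in the scrambled Jurkat libraries, at 140 and 145 with shRNA-4057 and at 244 and 242 with shRNA-4058. In HSB-2 it stood at 227 and 220 CPM in scrambled libraries, 144 and 149 with shRNA-4057 and 162 and 156 with shRNA-4058. Library totals ranged from 76.6 M to 235 M counts, so that counting error was small for nearly all members. The 9 T-lineage markers were detected in every library and summed to 2225 to 2884 CPM in Jurkat and to 2268 to 3515 in HSB-2, where the hairpin libraries (3031 to 3515) were above the controls and CD2 and CD28 reached no more than 4.96 CPM. The 5 B-lineage markers summed to 61.7 and 64.8 CPM in scrambled Jurkat cells, 35.9 and 36.4 in wild-type and 22.0 to 23.0 in the shRNA libraries, nearly all of it CD79A, and to at most 4.61 in HSB-2. MS4A1 was at most 0.33 CPM in any library. The part of these markers in the results was not tested. The 5 myeloid markers summed to at most 0.93 CPM, and the 3 erythroid markers to at most 0.78, with HBB at 0 in all 16 libraries.

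The summed level of the 77 members was highest in scrambled Jurkat cells. It was 51503 and 52267 CPM in the wild-type Jurkat libraries, 64561 and 66801 in scrambled, 40810 and 39989 with shRNA-4057 and 39550 and 40762 with shRNA-4058. The 4 Jurkat groups thus separated into 3 levels, with the 2 hairpins overlapping at the bottom. In HSB-2 the sums were 42501 and 42706 CPM in wild-type libraries, 47252 and 49322 in scrambled, 53617 and 53085 with shRNA-4057 and 51008 and 52850 with shRNA-4058. Here wild-type cells were lowest and the hairpin libraries highest, with the scrambled libraries between them. The mean of the shRNA libraries was 61.3% of scrambled and 77.6% of wild-type in Jurkat, or 74.4% and 84.3% when CPM was scaled to library totals alone. In HSB-2 it was 109% of scrambled and 124% of wild-type, or 99.0% and 116% with library totals alone. As a share of all counts, members took 4.55% to 6.18% in Jurkat and 4.09% to 4.90% in HSB-2. In bulk libraries fewer cells with a transcript and less transcript per cell cannot be told apart.

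**Figure D1:**
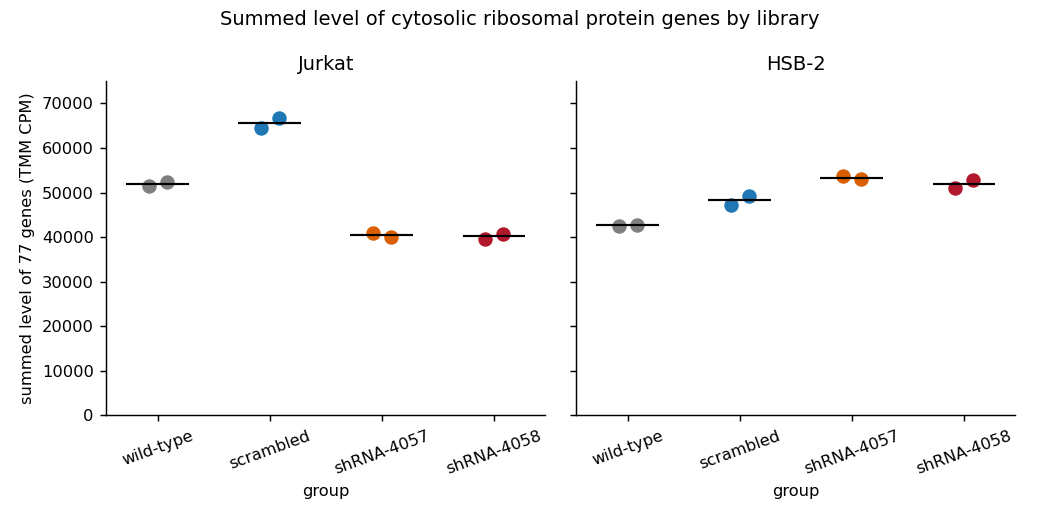
Summed TMM-scaled CPM of the 77 cytosolic ribosomal protein genes in each library (points, y axis) by group (x axis), with a bar at the mean of the 2 libraries. Jurkat hairpin libraries sit between 39550 and 40810 CPM, under both control groups; HSB-2 hairpin libraries sit between 51008 and 53617 CPM, above both, an order that with library totals alone holds against wild-type only (99.0% of scrambled).

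The balance of the subunits differed between groups in both lines. The summed small subunit level was 0.711 and 0.702 of the large subunit level in scrambled Jurkat cells, and lay between 0.654 and 0.658 in the other 6 Jurkat libraries. In HSB-2 the ratio was 0.637 to 0.641 in the 4 control libraries and 0.650 to 0.655 in the 4 hairpin libraries. Within each line the groups named did not overlap, and the ratio was not tested.

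USP7 knock-down in Jurkat was compared with scrambled control, with both hairpins together. Of the 77 members, 73 fell and none rose at an adjusted p under 0.05 (edgeR's quasi-likelihood test, Benjamini-Hochberg over all genes), where 15.7% of all 21288 genes tested fell and 12.4% rose. The median member had a log2 fold change of -0.67 with a spread of 0.18 (scaled median absolute deviation), against a median of 0.02 and a spread of 0.50 over all genes. The members thus formed a narrower band than genes at large, displaced from 0. No set of genes at a like level was compared, so the narrowness is not shown to be particular to the members. With library totals alone the median of all genes was 0.27 and that of the members -0.41. There 68 members fell and none rose (7.08% and 30.6% of all genes). The displacement from all genes was -0.68 against -0.69 with TMM. Scaling moves all genes of a library alike, so this displacement could hardly change and the match is no separate support. Large and small subunit medians were -0.66 and -0.69. All 4 shRNA libraries lay under both scrambled libraries for 75 of 77 members, a pattern that 29.6% of all genes showed.

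RPS3A, a small subunit protein, had the lowest value of this band. It stood at 1668 and 1551 CPM in scrambled Jurkat cells, 765 and 785 with shRNA-4057 and 760 and 741 with shRNA-4058, with wild-type cells at 1026 and 971. All shRNA libraries were under every control library, and the change against scrambled cells was -1.05 on the log2 scale (SE 0.05, adjusted p = 6.8e-05). RPS6, the small subunit protein that S6 kinases phosphorylate, stood at 2175 and 2201 CPM in scrambled cells and at 1124, 1100, 1072 and 1123 in the 4 shRNA libraries (log2 fold change -0.96, SE 0.04, adjusted p = 6.0e-05). RPL36 of the large subunit fell by 0.96 on the log2 scale (SE 0.07), from 550 and 627 CPM to between 283 and 315. HSD11B1L overlaps RPL36 on the same strand.

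Members with known special roles were inside the band. The stalk proteins RPLP0, RPLP1 and RPLP2, which recruit elongation factors, had log2 fold changes of -0.72, -0.78 and -0.60 (SE 0.05, 0.05 and 0.07). RPL5 and RPL11, which join the large subunit as one particle and bind MDM2, had -0.66 and -0.46 (SE 0.05 and 0.06). RPL5 stood at 1172 and 1209 CPM in scrambled cells and between 727 and 757 in the shRNA libraries, and RPL11 at 691 and 768 against 502 to 534. RPL10, a late-joining large subunit protein that is mutated in some T-ALL, had -0.63 (SE 0.05), and RPL3, close to the peptidyl transferase centre, -0.52 (SE 0.05). Of the small subunit, RPS14 had -0.92 (SE 0.06) and RPS19, the gene most often mutated in Diamond-Blackfan anaemia, -0.70 (SE 0.05). RPSA, also known as the laminin receptor, had -0.58 (SE 0.05), and RPS27A, made as a fusion with ubiquitin, -0.56 (SE 0.06). All 11 of these genes passed the test.

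The 4 members that did not pass were RPL22, RPS10, RPL17 and RPL36A. RPL22 was at -0.19 (SE 0.06, adjusted p = 0.052), the highest after RPL17 at -0.01 and RPL36A at 0.42 (SE 0.26). RPS10 had -0.43 with a wide error (SE 0.16, adjusted p = 0.085). RPL17 and RPL36A lay over 3 scaled median absolute deviations from the median member and were called outlying.

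**Figure D2:**
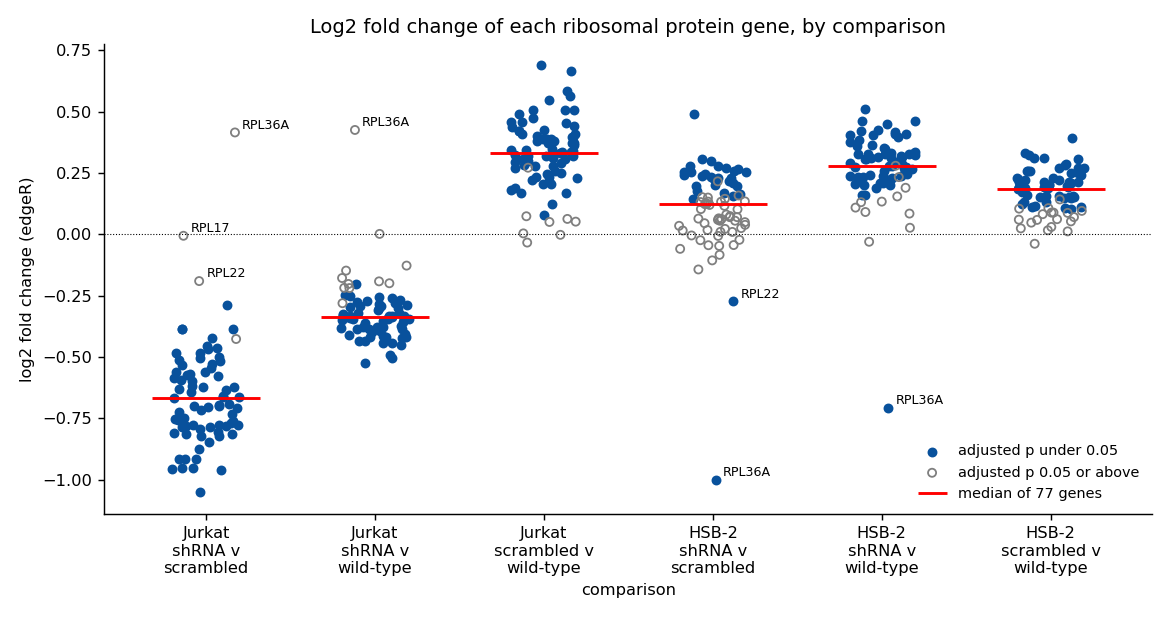
Log2 fold change of each of the 77 genes (points, y axis) in 6 comparisons (x axis), filled where the adjusted p was under 0.05, with a red line at the median member. The Jurkat members form a band around -0.67 against scrambled and -0.34 against wild-type, whereas the HSB-2 band lies at 0.12 against scrambled, a sign that library totals alone turn (-0.02), and at 0.28 against wild-type.

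Each hairpin gave the Jurkat shift by itself. With shRNA-4057, 75 members fell and none rose (27.3% and 22.7% of all genes), with a median of -0.68. With shRNA-4058, 75 members fell (26.7% of all genes) and RPL36A rose (19.7% of all genes), with a median of -0.71. The 75 genes were the same under both hairpins, which share their scrambled libraries. USP7 had log2 fold changes of -1.43 (SE 0.04) and -0.67 (SE 0.03) in these 2 comparisons. The lowest members with shRNA-4057 were RPS3A (-1.05), RPL35 (-1.03) and RPL36 (-0.98), and with shRNA-4058 RPS3A (-1.10), RPS18 (-1.03) and RPS3 (-1.01), which lines the mRNA entry channel. RPL17 (-0.05 and -0.01) and RPL36A (-0.03 and 0.71) were outlying under both hairpins. RPL22 fell with both, by 0.25 and 0.18 on the log2 scale (adjusted p = 3.5e-06 and 0.00025), and took values of 0.02 and 0.10 when libraries were scaled by totals alone.

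Compared directly in Jurkat, members differed between the hairpins at about the share of all genes with each scaling. With shRNA-4057 against shRNA-4058, 13 members were higher and 11 lower (17.7% and 16.2% of all genes), with a median of 0.01. Library totals alone gave 12 and 15 (16.6% and 16.4% of all genes), and DESeq2's size factors gave 9 and 12 (16.6% and 17.2%). The largest differences were RPL36A (-0.74, SE 0.11), RPS23 (-0.20, SE 0.03) and RPL35 (-0.17, SE 0.04) in one direction, and RPS10 (0.32, SE 0.11), RPL13A (0.25, SE 0.03) and RPS15A (0.21, SE 0.05) in the other. RPL36A and RPS10 were outlying.

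The scrambled control itself differed from wild-type Jurkat cells. Of the members, 69 were higher in scrambled cells and none lower (14.8% and 11.0% of all genes), with a median of 0.33, against 56 and 5 (5.99% and 27.3% of all genes) with a median of 0.17 for library totals alone, where all genes had -0.16. Both scrambled libraries lay above both wild-type libraries for 72 members, as for 31.3% of all genes. Scrambled cells had the highest mean of the 4 Jurkat groups for 75 members, an order that was not counted over all genes. RPS3A (0.69, SE 0.03) and RPS18 (0.67, SE 0.03) differed most. RPL22 (-0.03), RPL17 (-0.00) and RPL36A (0.00) were the lowest and did not pass. RPS18 shows the order, at 794 and 804 CPM in wild-type cells, 1258 and 1280 in scrambled, 678 and 660 with shRNA-4057 and 618 and 623 with shRNA-4058.

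Against wild-type in place of scrambled cells, the Jurkat shRNA members still fell, by less. There were 66 that fell and none that rose (5.31% and 3.10% of all genes), with a median of -0.34, and all 66 were among the 73 that fell against scrambled. All 4 shRNA libraries lay under both wild-type libraries for 74 members (23.3% of all genes). RPS3A had -0.36 (SE 0.05), RPS6 -0.41 (SE 0.04), RPLP0 -0.35 (SE 0.05) and RPS19 -0.40 (SE 0.05). RPSA, at 809 and 793 CPM in wild-type cells and 680 to 715 in the shRNA libraries, had -0.18 (SE 0.05, adjusted p = 0.063) and did not pass.

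In HSB-2 the same comparison gave a smaller shift of the other sign. With both hairpins together, 28 members rose (20.3% of all genes) and 2 fell (17.8% of all genes) against scrambled control, with a median of 0.12 against -0.02 over all genes, but with library totals alone 2 rose and 9 fell (13.8% and 28.7% of all genes), with a median of -0.02 against -0.16. Relative to the median of all genes the members were displaced by 0.14 under either scaling. A change of scaling moves all genes of a library alike, so it could hardly alter this displacement and gives no separate support for it. All 4 shRNA libraries lay above both scrambled libraries for 43 members (27.8% of all genes) and under them for 6 (29.5% of all genes). Without the first scrambled library the median member had 0.08, and without the second it had 0.17, each against -0.01 over all genes.

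RPS19 had the highest value. It stood at 584 and 622 CPM in scrambled HSB-2 cells, 852 and 827 with shRNA-4057 and 826 and 871 with shRNA-4058, with wild-type cells at 589 and 593. All 4 shRNA libraries were above all 4 control libraries, and the change against scrambled cells was 0.49 (SE 0.05, adjusted p = 0.00015). RPS19 kept its sign and its call under every alternative tried for this comparison. RPS15A (0.31, SE 0.05) and RPS3 (0.30, SE 0.06), both of the small subunit, followed. RPS3 went from 1088 and 1145 CPM in scrambled cells to 1418, 1392, 1295 and 1369. A gene of no symbol overlaps RPS15A on the same strand.

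The lowest HSB-2 values were RPL36A (-1.0, SE 0.13, adjusted p = 0.00039, outlying), RPL22 (-0.27, SE 0.07, adjusted p = 0.011) and RPL6 (-0.14, SE 0.06, adjusted p = 0.084). Of the genes with special roles, RPL10 rose as RPS19 did (0.23, SE 0.05, adjusted p = 0.0049; 0.09 and not called with library totals alone). RPLP0, RPLP1 and RPLP2 had 0.07, 0.13 and 0.15, RPL5 and RPL11 had -0.11 and 0.15, and RPL3 had 0.07, none of which passed. RPS6 (-0.02), RPS14 (0.12), RPSA (0.14) and RPS27A (0.06) did not pass either. RPLP0, at 2206 and 2293 CPM in scrambled cells and 2272 to 2424 in the shRNA libraries, shows how close the groups were.

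By hairpin, 48 members rose and 4 fell with shRNA-4057 (21.9% and 21.7% of all genes), with a median of 0.13. Library totals alone gave 23 and 14 members (15.3% and 30.3% of all genes). With shRNA-4058, 42 rose and 10 fell (26.6% and 26.2% of all genes), with a median of 0.10. For library totals alone these were 12 and 34 members, with a median of -0.06. TMM factors averaged 0.918 with shRNA-4057 and 0.890 with shRNA-4058, against 0.996 in scrambled HSB-2 cells. Scaling by library totals alone thus lowered the fold changes of all genes, not of members only. The 2 lists of risen members shared 37, which is 77.1% of the first and 88.1% of the second, and both hairpins were set against the same scrambled libraries. RPS19 had 0.48 and 0.49 (SE 0.04 and 0.04), followed by RPS3 (0.33) and RPL12 (0.33) with shRNA-4057 and by RPL28 (0.32) and RPL36 (0.31) with shRNA-4058. RPL36A had -0.90 and -1.08 (SE 0.11 and 0.10), and RPL22 -0.20 and -0.36 (SE 0.04 and 0.04). RPL5 with shRNA-4057 (-0.10) and RPL17 with shRNA-4058 (-0.24, adjusted p = 0.052) were the third lowest. RPL36A was outlying with both hairpins and RPS19 with shRNA-4057.

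Between the hairpins in HSB-2, 16 members were higher with shRNA-4057 and 4 lower (10.5% and 14.3% of all genes), with a median of 0.04. Library totals alone gave 35 and 1 (13.4% and 10.8% of all genes), and DESeq2's size factors gave 10 and 6 (8.90% and 16.5%). RPL17 (0.35, SE 0.11), RPL31 (0.32, SE 0.03) and RPL15 (0.26, SE 0.03) were the highest, and RPL35 (-0.18, SE 0.04), RPS21 (-0.13, SE 0.04) and RPL36 (-0.12, SE 0.06, adjusted p = 0.17) the lowest. RPL31, a protein at the exit of the peptide tunnel, stood at 465 and 464 CPM with shRNA-4057 and at 360 and 384 with shRNA-4058, on either side of the scrambled libraries at 427 and 438. RPL17, RPL31, RPL15 and RPL35 were outlying.

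The scrambled control was above wild-type in HSB-2 too, with 58 members higher and none lower (16.1% and 17.9% of all genes) and a median of 0.18. Both scrambled libraries lay above both wild-type libraries for 69 members (34.8% of all genes). Wild-type cells had the lowest mean of the 4 HSB-2 groups for 74 members, an order that was not counted over all genes. RPL22 differed most (0.39, SE 0.04), followed by RPL31 (0.33) and RPL7 (0.33), and RPS26 (-0.04), RPL24 (0.01) and RPL10 (0.02) did not pass. Set against wild-type cells, 65 members rose with the hairpins and 1, RPL36A, fell (13.3% and 11.8% of all genes), with a median of 0.28. All 4 shRNA libraries lay above both wild-type libraries for 72 members (23.7% of all genes). RPS19 (0.51, SE 0.04) was again highest, while RPL5 (0.19, SE 0.04, adjusted p = 0.014) and RPS6 (0.24, SE 0.05, adjusted p = 0.010) rose here and had values under 0 against scrambled cells. RPL22 had 0.11 (adjusted p = 0.27) against wild-type.

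The difference between the lines was tested in 1 model, by subtracting each hairpin's Jurkat effect from its HSB-2 effect. For shRNA-4057, 73 members had a higher effect in HSB-2 and 1 a lower (24.9% and 21.8% of all genes), with a median difference of 0.86. For shRNA-4058, 73 were higher and 2 lower (29.6% and 26.0% of all genes), with a median of 0.84. RPS3 (1.21 and 1.26, SE 0.05 and 0.05), RPL36 (1.17 and 1.29, SE 0.09 and 0.09), RPS19 (1.16, SE 0.05, for shRNA-4057) and RPS15A (1.30, SE 0.07, for shRNA-4058) had the largest differences. RPL36A had -0.88 and -1.79 (SE 0.15 and 0.15). RPL22 had 0.05 (adjusted p = 0.46) and -0.18 (adjusted p = 0.0049), RPL17 0.16 and -0.23 (adjusted p = 0.40 and 0.18), and RPL6 0.30 and 0.03 (adjusted p = 1.1e-06 and 0.59). RPL36A, RPL22 and RPL17 were outlying for both hairpins and RPL6 for shRNA-4058. With library totals alone the medians were 0.47 and 0.39 while all genes moved to -0.41 and -0.43. The displacement from all genes was then 0.89 and 0.82, which a change of scaling could hardly alter.

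**Figure D3:**
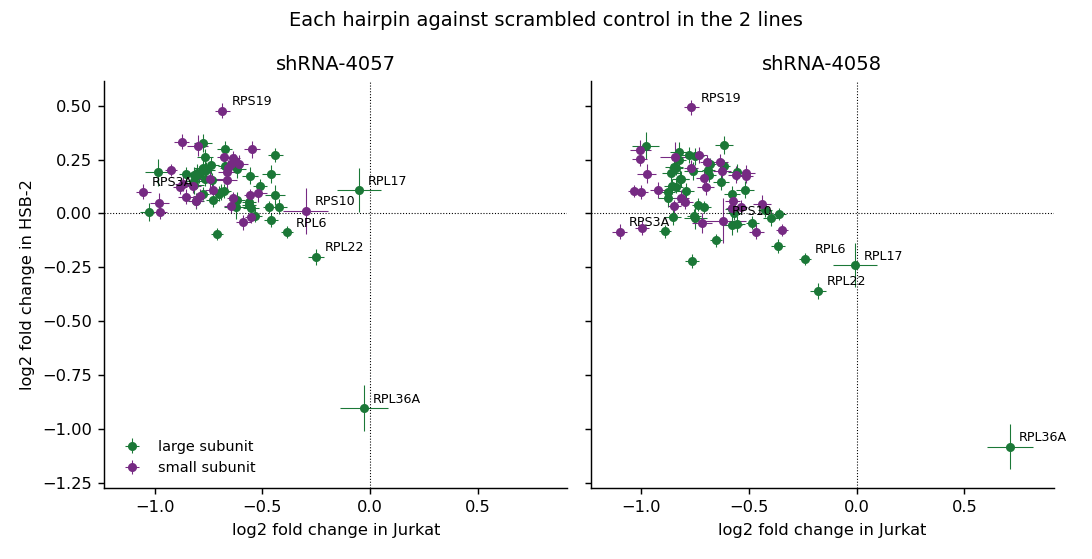
Log2 fold change against scrambled control in Jurkat (x axis) and HSB-2 (y axis) for each of the 77 genes, with SE bars, by hairpin (panels) and subunit (colours). All members but RPL36A with shRNA-4058 (0.71) sit left of 0 in Jurkat, and RPL36A, RPL17 and RPL22 lie to the right of the others; positions above 0 in HSB-2 depend on the scaling, with medians of 0.01 and -0.06 for library totals alone.

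Wild-type cells of the 2 lines differed in their ribosomal protein mRNAs as well. In Jurkat 57 members were higher and 10 lower than in HSB-2 (34.6% and 33.5% of all genes), with a median of 0.33 and a spread of 0.40, wider than in the knock-down comparisons. RPS7 (1.30, SE 0.03), at 964 and 951 CPM in Jurkat and 395 and 383 in HSB-2, RPL6 (1.01, SE 0.03) and RPL23 (1.01, SE 0.04) were highest. RPLP1 (-0.58, SE 0.04), at 615 and 631 CPM against 933 and 937, RPL28 (-0.49, SE 0.04) and RPL36A (-0.45, SE 0.11) were lowest. RPL10 (-0.32), RPLP0 (-0.30) and RPL3 (-0.17) were lower in Jurkat too, and RPSA, RPS27A and RPLP2 (0.01, 0.01 and 0.02) did not pass. RPL5 (0.70), RPS14 (0.48), RPL11 (0.44), RPS6 (0.43), RPL22 (0.30) and RPS19 (0.18) were higher in Jurkat. No member was outlying.

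RPL22 had the highest Jurkat value after RPL36A and RPL17, and the lowest HSB-2 value after RPL36A. It stood at 354 and 347 CPM in wild-type Jurkat cells, 341 and 343 in scrambled, 279 and 296 with shRNA-4057 and 310 and 294 with shRNA-4058. In HSB-2 it stood at 282 and 289 CPM in wild-type cells, 381 and 367 in scrambled, 319 and 332 with shRNA-4057 and 294 and 288 with shRNA-4058. The hairpin libraries of HSB-2 were thus under both scrambled libraries, those of shRNA-4057 above both wild-type libraries and those of shRNA-4058 overlapping them. A protein-coding gene overlaps RPL22 on each strand. Its paralog RPL22L1, which can take its place in the ribosome, stood at 14.8 and 13.7 CPM in wild-type Jurkat cells, 21.6 and 21.0 in scrambled, 12.4 and 13.3 with shRNA-4057 and 16.3 and 14.7 with shRNA-4058. In HSB-2 it was far higher, at 64.2 and 66.7 CPM in wild-type cells, 78.9 and 75.9 in scrambled, 63.3 and 68.5 with shRNA-4057 and 57.6 and 61.0 with shRNA-4058. RPL22L1 fell against scrambled in both lines (-0.56, SE 0.12, and -0.30, SE 0.07) and was lower in wild-type Jurkat than in wild-type HSB-2 cells by 2.19 on the log2 scale (adjusted p = 5.4e-20).

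**Figure D4:**
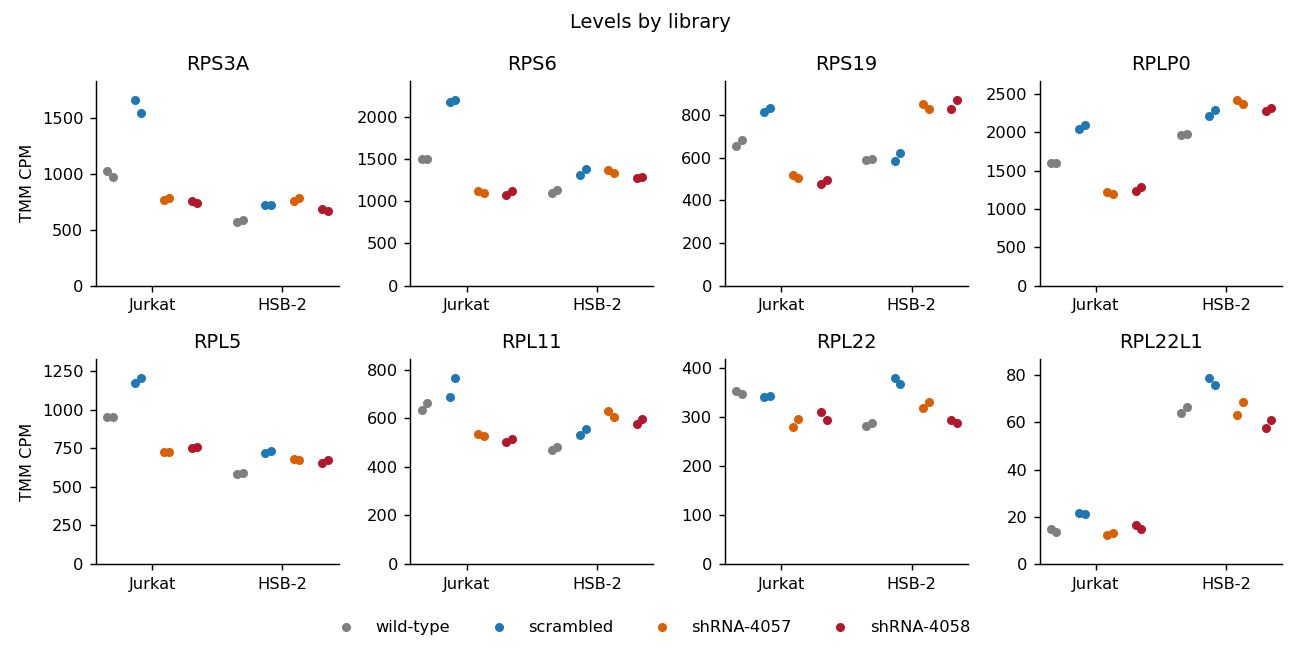
TMM-scaled CPM (y axes from 0) in each library (points) of 7 members and of RPL22L1, by line (x axis) and group (colours). Scrambled Jurkat cells are highest for RPS3A (1668 and 1551) but not for RPL22 (341 and 343, wild-type at 354 and 347), and RPS19 is highest in the HSB-2 hairpin libraries (826 to 871).

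RPL36A, RPL17 and RPS10 are uncertain. They were counted at 8.18, 10.1 and 13.4 CPM per kilobase of transcript on average over the groups, against 50.6 or more for the other members. Each lies in a readthrough gene on the same strand (RPL36A-HNRNPH2, RPL17-C18orf32 and RPS10-NUDT3) that was listed at 0 counts in all 16 libraries, and whether reads shared by both genes were left out of the counting was not tested. RPL36A stood at 5.41 and 5.20 CPM in wild-type Jurkat cells, 5.60 and 5.06 in scrambled, 4.89 and 5.58 with shRNA-4057 and 8.99 and 8.44 with shRNA-4058. In HSB-2 it stood at 6.77 and 7.86 CPM, 9.01 and 8.98, 4.65 and 4.95, and 4.67 and 3.60 in the same order. It rose with shRNA-4058 in Jurkat and fell with both hairpins in HSB-2, whereas RPL17 stayed between 4.85 and 7.31 CPM in all 16 libraries. In all, 8 members overlap another protein-coding gene on the same strand and 25 on the other strand, and the strand setting of the counting was not stated.

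Ribosomal genes outside the rule, and the other parts of ribosome production, were read from lists. The shares of all genes to read their counts against are 12.4% risen and 15.7% fallen in Jurkat (30.6% and 7.08% with library totals alone), and 20.3% and 17.8% in HSB-2 (13.8% and 28.7%). In Jurkat FAU and RACK1 both fell (-0.61 and -0.51), and in HSB-2 FAU (0.16) and RACK1 (0.08) did not pass. Of 8 paralogs, 7 were tested. In Jurkat 4 of them fell and none rose, with RPL22L1 and RPL39L (-0.48) lowest and RPL36AL (-0.45) and RPS27L (-0.24, SE 0.07; 0.01 with library totals alone) next. In HSB-2 RPS27L, a p53-induced paralog of RPS27, rose (0.60, SE 0.07, adjusted p = 0.00015), from 32.5 and 33.3 CPM in scrambled cells to 48.4, 47.9, 49.3 and 54.1, and RPL22L1 and RPL7L1 (-0.22) fell. The difference of its effect between the lines was 0.81 for shRNA-4057 and 0.92 for shRNA-4058 (adjusted p = 6.5e-09 and 4.1e-10).

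The list of translation factors moved with the members in Jurkat. It was chosen because many of these mRNAs also carry a TOP, and it also held TPT1, HNRNPA1 and NPM1. The counts below are over the whole list. In Jurkat 15 of 17 tested fell and none rose, with a median of -0.33 (4 fell with library totals alone, median -0.08). EEF1B2 (-0.88, SE 0.07), an exchange factor of elongation, and TPT1 (-0.78, SE 0.06) fell most, while EIF3K (-0.27) and HNRNPA1 (-0.18, or 0.08 with library totals alone) fell least. In HSB-2 4 rose and 2 fell, with a median of -0.01, against 3 and 7 with a median of -0.15 for library totals alone. EIF3K (0.38, SE 0.06) and EIF3F (0.31, SE 0.05) rose most, and EIF3E (-0.29) and NPM1 (-0.24), a nucleolar chaperone, fell.

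Ribosome biogenesis factors, which process ribosomal RNA and assemble the subunits, had medians of the opposite sign to the members in both lines, in HSB-2 not with library totals alone. In Jurkat 10 of 38 rose and 2 fell, with a median of 0.24 (24 and none with library totals alone, median 0.49). POLR1B, a subunit of RNA polymerase I, rose (0.73, SE 0.17, adjusted p = 0.017), with NOP16 at 0.68 (SE 0.10), and NOB1 (-0.45) and NOP10 (-0.34) fell. In HSB-2 none rose and 32 of 38 fell, with a median of -0.43 (36 fell with library totals alone), led by UTP20 (-0.82, SE 0.08) and POLR1B (-0.81, SE 0.07), while NOP56 (-0.21) and TSR1 (-0.19) fell least. The Jurkat values differed between the hairpins. Under shRNA-4057, 34 of 38 were lower than under shRNA-4058 and none higher (16.2% and 17.7% of all genes). Against scrambled control, 14 rose and 10 fell with shRNA-4057 (22.7% and 27.3% of all genes), with a median of 0.04. The share of the list that fell there (26.3%) was near that of all genes. With shRNA-4058, 31 rose and 5 fell (19.7% and 26.7% of all genes), with a median of 0.39. Of the 7 chaperones of ribosomal proteins, HEATR3 (0.39) and GRWD1 (0.47) rose in Jurkat and none fell, and in HSB-2 5 fell, from PDCD2L (-0.65) and HEATR3 (-0.48) to GRWD1 (-0.29) and PDCD2 (-0.24).

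Mitochondrial ribosomal proteins, which build a separate ribosome, had a smaller median in Jurkat, whose sign turned with the scaling. There 33 of 75 fell and 1 rose, with a median of -0.24, against 9 and 6 with a median of 0.01 for library totals alone. MRPL17 (-0.86, SE 0.11) and MRPL10 (-0.71) were the lowest that passed, and MRPL1 (0.80, SE 0.15) rose. In HSB-2 19 of 76 fell and 7 rose, with a median of -0.11 (45 and 2 with library totals alone), with MRPS25 (-0.58) and MRPL1 (-0.50) the lowest and MRPS6 (0.63) and MRPL10 (0.36) the highest that passed. Among 19 regulators of ribosome production, the counts that rose with TMM were near the shares of all genes in both lines. Of these, 3 rose and 1 fell in Jurkat (14 and 1 with library totals alone), where LARP1 (0.27, SE 0.07), SESN2 (0.31, SE 0.09) and MTOR (0.20, SE 0.06) rose and EIF4EBP1 (-0.72, SE 0.15) fell. In HSB-2 4 rose and 5 fell (none and 10 with library totals alone), with SESN2 (0.44), an inhibitor of mTOR signalling, and RPS6KB2 (0.24) highest and LARP4 (-0.88) and MYC (-0.50, SE 0.09, adjusted p = 0.0026) lowest. MYC, a driver of ribosomal gene transcription, had 0.47 in Jurkat (SE 0.21, adjusted p = 0.12).

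**Figure D5:**
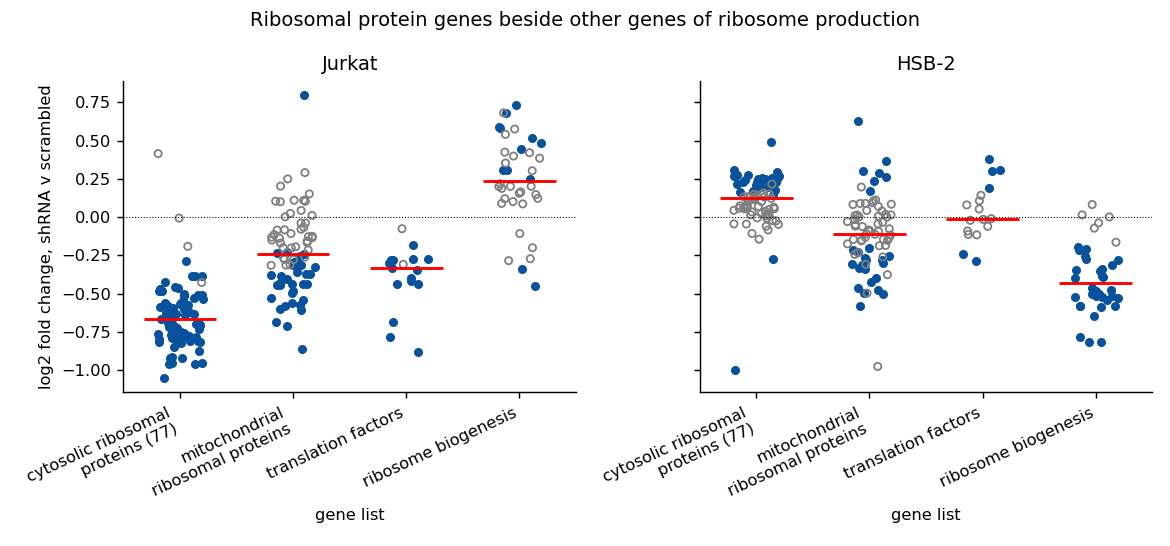
Log2 fold change of USP7 shRNA against scrambled control (y axis) for each tested gene of 4 lists (x axis) in Jurkat and HSB-2, filled where the adjusted p was under 0.05, with a red line at the list's median. In Jurkat the ribosomal protein median is -0.67 and the biogenesis median 0.24; in HSB-2 they are 0.12 (-0.02 with library totals alone) and -0.43.

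Other quantities were read beside the members, and some of them moved with the members in some comparisons. Summed counts of 1591 ribosomal protein pseudogenes, whose reads can come from the members, were 4142 and 4234 CPM in scrambled Jurkat cells, 3318 and 3325 in wild-type and 2554 to 2628 in the shRNA libraries, and in HSB-2 2501 to 2533, 2847 to 2904 and 3000 to 3136 in wild-type, scrambled and shRNA libraries. RN7SL2, a short RNA of the signal recognition particle, took 42136 and 52357 CPM in scrambled Jurkat cells, 25038 and 30304 in wild-type and 15427 to 19587 in shRNA libraries. In HSB-2 it took 13547 and 15113 CPM in scrambled cells, 16911 and 18137 in wild-type and 21488 to 27128 in shRNA libraries, so that scrambled was below wild-type, opposite to the members. Most members had a listed transcript of up to 1000 bases, but not all. RPL37, RPL14, RPL27A and RPL28 were listed at 7573, 7136, 4535 and 4209 bases, and these listed lengths were the ones used here. Other protein-coding genes with a transcript of up to 1000 bases had a median of -0.37 in Jurkat (467 genes) and 0.13 in HSB-2 (461 genes). Those over 4000 bases had 0.05 and -0.04. In scrambled against wild-type cells the shortest class had 0.26 in Jurkat and -0.03 in HSB-2, where the members had 0.33 and 0.18. When an offset took GC content and transcript length into account, 72 members fell in Jurkat (13.9% of all genes), with a median of -0.51 against 0.06 over all genes, and 22 rose in HSB-2 (17.9% of all genes), with a median of 0.08 against -0.05. The part of RN7SL2 in the result was not tested.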

How the data were processed

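Total RNA was depleted of ribosomal RNA and sequenced as stranded libraries. Per the labels and methods, the authors mapped reads with BWA to GRCh37-lite and transcript collections and counted them per gene with HT-seq. The submitters' processing notes also name CASAVA, STAR and HTSeq 0.6.1p1. What was deposited was a table of unnormalized read counts, 1 column per library. The table gave Ensembl IDs only, and symbols, positions, lengths and GC content came from GENCODE release 44 mapped to GRCh37 (55538 of 57820 IDs matched).

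The analysis ran edgeR 4.0.16 under R 4.3.3 (filterByExpr, TMM, quasi-likelihood F-test, Benjamini-Hochberg over all genes tested, threshold 0.05). Both hairpins against scrambled were fitted per line (6 libraries). The other contrasts used all 16 libraries as 8 groups, which share 1 estimate of the spread. In the pooled fits the replicates' biological coefficient of variation was 14.3% (Jurkat) and 10.7% (HSB-2), which includes differences between hairpins, against 4.20% in the 8-group fit. SE is that of the log2 fold change. The code was tested on simulated data. Alternatives were DESeq2 1.42.0, its size factors, library totals, no filter, replicate block, GC and length offset, other controls and leaving out each library. Named were, per comparison, the 3 highest and 3 lowest members, outlying members and 13 members of known role, and for each list the 2 highest and 2 lowest called. The members and lists were chosen with earlier results of these data known. Replicates of a group differed beyond sampling noise. A few items that the naming rule selects are not reported here.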

Additional observations from a re-analysis of the deposited data

Results flagged for a closer look

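The knock-down effect differed between the lines by a test of the difference itself (HSB-2 minus Jurkat, edgeR). For shRNA-4057, 73 members differed upward and 1 downward (24.9% and 21.8% of all genes), and for shRNA-4058 73 and 2 (29.6% and 26.0%). Among the members named for shRNA-4057, the differences were 1.17 for RPL36, 1.16 for RPS19, 1.21 for RPS3 and -0.88 for RPL36A. For shRNA-4058 they were 1.29 for RPL36, 1.30 for RPS15A, 1.26 for RPS3, -0.18 for RPL22 and -1.79 for RPL36A. RPL36A was counted at under 10 CPM in every library and is uncertain. No named member had 1 of the 4 shRNA libraries of a line far from the other 3.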

How the results depend on the processing

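With library totals alone, 2 members rose in HSB-2 with both hairpins together (13.8% of all genes), where the report has 28 (20.3%). By hairpin 23 (shRNA-4057, 15.3% of all genes) and 12 (shRNA-4058, 18.4%) rose, and 35 (13.4%) were higher with shRNA-4057 than with shRNA-4058. The same scaling put the summed shRNA level at 0.744 of scrambled in Jurkat and 0.990 in HSB-2, and DESeq2's size factors at 1.13 in HSB-2. For the pooled HSB-2 comparison, 65 rose against wild-type (13.3% of all genes) and 45 with the hairpins as separate groups (25.4%). Higher with shRNA-4057 than with shRNA-4058 in Jurkat were 8 members (DESeq2, 16.2% of all genes) or 25 (GC and length offset, 17.9%). That offset also gave 23 lower (19.8%). In HSB-2 there were 10 (DESeq2's size factors, 8.90%) or 9 (DESeq2, 9.11%). Leaving out 1 library gave 2 to 29 members that rose in HSB-2, with 2 left without the first scrambled library, 69 to 74 that fell in Jurkat, 5 to 12 higher with shRNA-4057 than shRNA-4058 in Jurkat and 5 to 10 in HSB-2. For single hairpins these fits gave 33 to 49 and 32 to 50 that rose in HSB-2 (shRNA-4057 and shRNA-4058).

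Signs turned for 26 named-gene values, 15 of them with library totals alone. That scaling moves the fold changes of all genes of a comparison together. Against scrambled control the median over all genes became 0.26 with each hairpin in Jurkat, and -0.13 (shRNA-4057) and -0.17 (shRNA-4058) in HSB-2. The cause of the other turned signs was not tested. Every member named for a known role except RPL10 turned in some setting. With library totals alone RPL22 took 0.022 (shRNA-4057) and 0.10 (shRNA-4058) and RPL17 0.28 (shRNA-4058) in Jurkat. In HSB-2 with shRNA-4057, RPLP0 took -0.026, RPLP2 -0.019 and RPS6 -0.11, and with shRNA-4058 RPL11 -0.052, RPL3 -0.16, RPLP0 -0.13, RPLP1 -0.060, RPS14 -0.062, RPS27A -0.13 and RPSA -0.14. The difference between lines became -0.34 for RPL22 (shRNA-4057) and -0.42 for RPL6 (shRNA-4058, or -0.13 with the GC and length offset). With that offset RPL3 took -0.15 and RPLP0 -0.087 (shRNA-4058, HSB-2), RPLP2 -0.0099 (shRNA-4057, HSB-2), RPS27A 0.0054 (between hairpins, Jurkat) and RPS19 0.081 (HSB-2), and RPS27A -0.097 and RPSA -0.086 between wild-type lines. Against wild-type HSB-2 cells RPL22 took 0.11, RPL5 0.19 and RPS6 0.24. Of all named-gene values, 2463 kept sign and call, 86 gained and 73 lost the call and 26 turned.

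No label ties samples of the same number, and the correlations of their deviations ran from -0.39 to 0.35 in Jurkat (3 of 6 pairs of groups over 0.1, and shRNA-4057 below 0 with each other group) and from -0.31 to 0.19 in HSB-2 (1 of 6 over 0.1), so the numbers were not taken as pairs. With the replicate block 73 members fell in Jurkat (11.6% of all genes) and 23 rose in HSB-2 (17.3%).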
